A study of Homo sapiens with 6 samples.

Results

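The snoRNA host lncRNAs are long non-coding RNA genes whose introns hold small nucleolar RNAs (snoRNAs). Calu-6 cells, a long-established human lung carcinoma line, were the source of all libraries, and 10 such genes were followed in them: DANCR, GAS5, ZFAS1, SNHG1, SNHG5, SNHG6, SNHG8, SNHG16, SNHG29 and EPB41L4A-AS1. They were found in the count table by gene symbol and held 144 of its 21472 transcript models and 10 of its 10072 genes. The members were chosen by their symbols with the measured gene-level log2 fold changes between these libraries known, so the gene-level differences between the groups are given as a description and not as a test of the list.

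Cells had received 10 nM of siRNA, either a non-silencing one (siControl) or one directed at the junction that exon 1 forms with exon 5 in the Delta 2-4 splice form of TERT, the telomerase reverse transcriptase (siDelta2-4). Both were delivered with RNAiMAX and left for 48 h, with 3 long-read cDNA libraries per group run together on 1 flow cell. The labels call the cells wild type, whereas the column names carry the word Empty, which the methods use for empty-vector cells, and this difference was not resolved. TERT had 0 rows in the table, so the knockdown itself was not analysed here. The paper calls the replicates biological, but the labels do not say whether the 3 libraries of a group came from separate cultures. The errors therefore measure the spread between these libraries.

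The libraries held between 1037468 and 1309241 counts, and between 2763 and 3547 of them fell on the 10 genes. Within a group, values are given in the order of the libraries with the highest, middle and lowest total count. Of the 6 markers of lung epithelium and carcinoma, KRT18 (150.3 to 195 CPM, counts per 1000000 library counts) and KRT8 (103 to 144) were abundant, KRT7, EPCAM and KRT19 did not exceed 8.41, and CDH1 had no row. Of 11 markers of leukocytes, endothelium and fibroblasts, 9 had no row and the other two, CD68 and PDGFRA, did not exceed 2.53 CPM.

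A snoRNA guides the chemical modification of other RNAs, mostly ribosomal RNA. C/D box snoRNAs (SNORD) direct methylation of the ribose, and H/ACA box snoRNAs (SNORA) direct the conversion of uridine to pseudouridine. In animals most are cut out of introns of a host gene after splicing. Many host genes carry a terminal oligopyrimidine (TOP) tract, a cytosine followed by an unbroken run of pyrimidines at the very start of the RNA, which is also the hallmark of ribosomal protein mRNAs and ties their translation to the kinase mTORC1 through LARP1. The spliced exons of several non-coding hosts are engaged by ribosomes and then removed by nonsense-mediated decay, so the level of a host lncRNA and that of its snoRNAs need not move together.

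RefSeq places 30 SNORD and 4 SNORA genes inside the 10 hosts, with 1 further unnamed snoRNA gene in SNHG1. GAS5 has 11 (10 SNORD and SNORA103), SNHG1 has 9, and SNHG16 (SNORD1A, SNORD1B and SNORD1C), SNHG29 (SNORD49A, SNORD49B and SNORD65) and ZFAS1 (SNORD12, SNORD12B and SNORD12C) have 3 each. SNHG5 has 2 (SNORD50A and SNORD50B). DANCR, SNHG6, SNHG8 and EPB41L4A-AS1 hold 1 each, namely SNORA26, SNORD87, SNORA24 and SNORA13. Selected snoRNAs are printed from the GRCh38 genome on the strand of their host, with the box motifs in capitals. The first lies in the host that was called lower, and the second in the intron that ends at a different exon in each of the leading ZFAS1 models. The third is an example from GAS5 on which no result below turns, and the fourth lies over an exon of counted SNHG29 models.
SNORA26, chr4:52713249-52713370, plus strand, in DANCR: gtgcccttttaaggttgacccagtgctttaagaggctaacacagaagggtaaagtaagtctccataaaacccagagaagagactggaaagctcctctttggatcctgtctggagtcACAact
SNORD12, chr20:49280683-49280772, plus strand, in ZFAS1: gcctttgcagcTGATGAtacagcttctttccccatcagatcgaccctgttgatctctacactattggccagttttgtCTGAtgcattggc
SNORD44, chr1:173865968-173866028, minus strand, in GAS5: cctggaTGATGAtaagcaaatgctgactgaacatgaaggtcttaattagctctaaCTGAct
SNORD49B, chr17:16439509-16439556, plus strand, in SNHG29: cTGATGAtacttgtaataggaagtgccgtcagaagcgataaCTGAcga

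The C box was searched as TGATGA within the first 20 bases, the D box as CTGA within the last 15, and the ACA box as ACA within the last 8, on the host strand alone. The C box was in 20 of the 30 SNORD genes, the D box in 29 of 30 and the ACA box in all 4 SNORA genes. Over all SNORD genes of Gencode 44 the shares were 65.5% and 87.2% (313 genes), and over all SNORA genes the share was 82.2% (214 genes). The window of the same length just upstream held them in 0.958%, 5.11% and 8.88% of these genes. A match is a description of the letters and no evidence of a working snoRNA.

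These libraries read polyadenylated RNA, and the snoRNAs themselves had few counts as rows of their own. Of the 35 snoRNA genes, 14 (all 11 of GAS5, SNORD29, SNORD31 and SNORD50A) are not in the Gencode annotation used here under their own entry and could have no row. SNORA26 had 7 counts over the 6 libraries, SNORD50B had 4 and SNORD49B had 3. The values below are therefore levels of spliced host RNA.

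Most of the host RNA was spliced. Models of 2 or more exons held 99.5% ± 0.093 of the host lncRNA counts among siControl libraries and 99.4% ± 0.181 among siDelta2-4 libraries (mean ± SD of 3). The same shares were 85.1% ± 0.475 and 85.9% ± 0.129 for other lncRNA genes, and 95.5% ± 0.116 and 95.5% ± 0.137 for protein-coding genes. Annotated models held 94.4% ± 0.220 of host lncRNA counts in the siControl libraries and 93.2% ± 0.238 in siDelta2-4, where the whole table had 44.9% ± 0.332 and 45.6% ± 0.675. Nothing is read from the host difference, because unannotated models had at least 5 counts in each siDelta2-4 library but as few as 0 in siControl. Of the 144 models, 130 were annotated in Gencode 44 and 14 had been added by TALON, the annotation tool the authors used.

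In 8 of the 10 genes, at least 97.4% of the counts on annotated models lay on models that keep every snoRNA gene inside an intron. This share was 100% for ZFAS1, SNHG16 and EPB41L4A-AS1, 99.7% for SNHG6, 99.3% for GAS5, 99.0% for SNHG5, 98.9% for DANCR and 97.4% for SNHG8. A snoRNA was counted as exonic where at least 10 of its bases lay in an exon (SNORA103 reaches 2 bases into exon 5 of the leading GAS5 model and was counted as intronic). The exceptions were SNHG29, with 77.6%, and SNHG1, with 59.7% of only 67 counts.

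**Figure D1:**
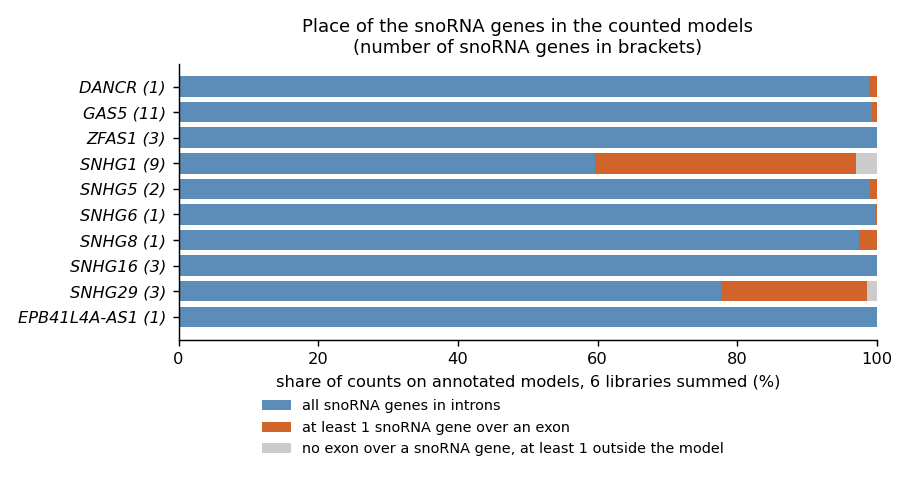
Share of the counts on annotated models (x axis, percent, 6 libraries summed) in which all snoRNA genes lie in introns (blue), at least 1 lies over an exon (orange), or none is exonic and at least 1 lies outside the model (grey), for each host lncRNA with its number of snoRNA genes. The orange part reached 20.9% for SNHG29 and 37.3% for SNHG1, and was 2.58% or less for the others.

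SNHG29 accounted for most of the exonic counts. In 7 of its annotated models an exon overlaps SNORD49B, printed above, and these carried 1154 counts, or 20.4% of the SNHG29 total. The most counted of them, named here after its values were seen, was SNHG29-239 (6 exons, 1129 nt), with 89, 88 and 94 counts in the siControl libraries and 96, 83 and 114 in siDelta2-4. The overlap was partial in 6 of the 7 models, with 25 to 29 of the 48 bases in an exon and 1007 counts. SNHG29-238 (3 exons, 1930 nt) covers SNORD49B whole, also has SNORD49A over an exon, and had 147 counts in all. The share of annotated SNHG29 counts with an exonic snoRNA was 22.1% ± 0.816 in siControl and 20.01% ± 1.04 in siDelta2-4, and the 2 groups did not overlap (difference of -2.13 percentage points, not tested). The share lay the other way in GAS5 (0% in every siControl library and above 0% in every siDelta2-4 library, at most 1.61%), in SNHG5 (0.685% ± 0.288 and 1.29% ± 0.391) and over the 9 genes outside SNHG29 (0.630% ± 0.135 and 1.11% ± 0.195), each without overlap. Over all 10 genes it was 6.79% ± 0.687 in siControl and 7.61% ± 0.372 in siDelta2-4, and the groups overlapped. The GAS5 models concerned had 1 or 2 counts each. Of all 21472 models of the count table, 4526 (21.1%) had no count in siControl and 0 had none in siDelta2-4. A share on rarely counted models can thus lie higher in siDelta2-4 through which models were kept, which was not tested. In DANCR the exonic counts came from DANCR-203 (2 exons, 6065 nt), which covers all 122 bases of SNORA26 with an exon and had 21 counts in all.

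The start of each host was read from the genome at the annotated start of the models, because the ends of single reads were not analysed here. A TOP start was searched as a C at the first base followed by at least 4 pyrimidines. None of the 10 most counted annotated models began in this way, against 62.4% of 85 ribosomal protein genes, 3.77% of 1168 other lncRNA genes and 5.15% of all 7782 annotated genes. At least 1 counted annotated model of the gene did so in 7 of the 10 hosts, 77.6% of ribosomal protein genes, 5.57% of other lncRNA genes and 7.45% of all annotated genes. Among the 938 other genes with 4 or more counted annotated models the share was 21.4%. A gene with more models has more chances to be counted here. The median number of models was 9 in the hosts, 5 in ribosomal protein genes and in those 938 genes, and 1 in other lncRNA genes and in all annotated genes. Annotated models with such a start held 8.82% of the annotated host counts.

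The hosts with a TOP start in a counted model are printed here from 15 bases before to 25 bases after that start, with the pyrimidine tract from the first base in capitals, each from the most counted model of the kind. SNHG6 belongs to them as well (4 models, 105 counts) and is named only. DANCR, which has no such start in any counted model, follows for comparison around the start of its leading model.
GAS5-268, chr1:173867964-173868004, minus strand: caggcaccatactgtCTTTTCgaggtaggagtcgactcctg
ZFAS1-201, chr20:49278627-49278667, plus strand: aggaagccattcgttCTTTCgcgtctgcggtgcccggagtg
SNHG8-212, chr4:118278743-118278783, plus strand: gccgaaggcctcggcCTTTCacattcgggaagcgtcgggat
SNHG16-215, chr17:76557754-76557794, plus strand: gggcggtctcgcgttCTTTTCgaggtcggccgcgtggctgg
SNHG29-235, chr17:16439022-16439062, plus strand: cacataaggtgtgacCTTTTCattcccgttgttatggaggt
EPB41L4A-AS1-204, chr5:112160849-112160889, plus strand: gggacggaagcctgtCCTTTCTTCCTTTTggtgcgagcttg
DANCR-201, chr4:52712310-52712350, plus strand: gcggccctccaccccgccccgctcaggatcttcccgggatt

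The tract of GAS5 lies 6 bases downstream of the annotated start of its leading model, GAS5-255. For the others the TOP start lies further inside, 42 bases downstream of the leading model's start in SNHG16, 50 in SNHG8, 270 in SNHG29, 338 in EPB41L4A-AS1 and 464 in ZFAS1. SNHG29-235 was by far the most counted TOP-start model, with 1021 counts. ZFAS1-201 had 61, fewer than SNHG29-202 (97), SNHG29-211 (88), SNHG29-205 (87) and SNHG6-205 (65), whereas GAS5-268, SNHG8-212, EPB41L4A-AS1-204 and SNHG16-215 had between 2 and 10. RefSeq starts, available for 9 of the hosts, began with the tract in SNHG5 and ZFAS1 (22.2%, against 6.38% of 5608 genes and 63.2% of 68 ribosomal protein genes). Within 20 bases on either side of the start of the most counted Gencode model, the motif was found on the host strand in 5 of 10 hosts, against 47.5% of all annotated genes and 54.8% of other lncRNA genes. Around the RefSeq start it was found in 7 of 9 hosts, against 48.2% of all genes.

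**Figure D2:**
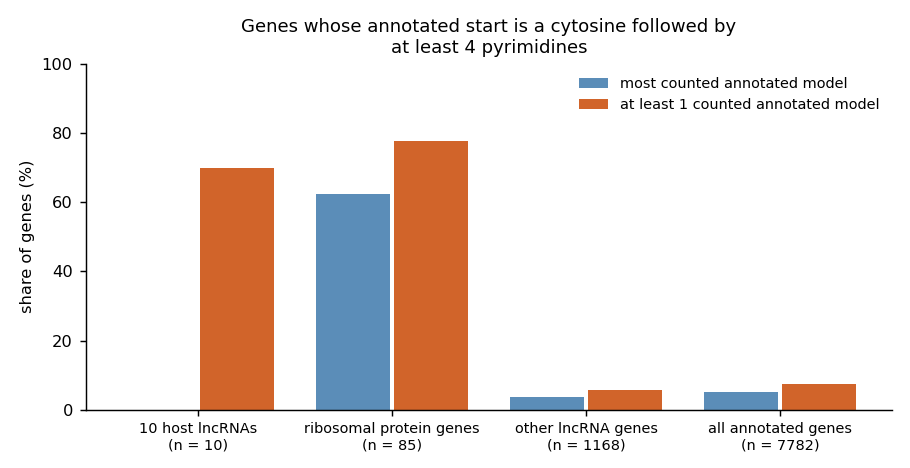
Share of genes (y axis, percent) whose annotated start is a C followed by at least 4 pyrimidines, for the most counted annotated model (blue) and for at least 1 counted annotated model (orange). The hosts are at 0% and 70%, ribosomal protein genes at 62.4% and 77.6%, other lncRNA genes at 3.77% and 5.57% and all annotated genes at 5.15% and 7.45%. These sets had a median of 9, 5, 1 and 1 counted annotated models per gene, and the orange share depends on that number.

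The hosts differed widely in level, and their order depended on scaling to length. A count is a long read assigned to a model, whatever its length. In CPM on TMM-scaled totals over the 6 libraries, SNHG29 had 842 ± 63.8, SNHG5 465 ± 48.1, ZFAS1 387 ± 56.8 and SNHG6 326 ± 29.6. DANCR (295 ± 86.6), GAS5 (291 ± 22.4), SNHG16 (100 ± 9.66), SNHG8 (74.7 ± 7.44), EPB41L4A-AS1 (18.7 ± 4.44) and SNHG1 (9.72 ± 3.50) followed. Scaled to the count-weighted length of their models, as CPM per kilobase over the 6 libraries, SNHG29 was highest at 737 ± 55.8, followed by SNHG6 (488 ± 44.3) and GAS5 (466 ± 35.9), whose ranges overlapped. SNHG5 (299 ± 31.0), DANCR (277 ± 81.5) and ZFAS1 (229 ± 33.6) formed the next step, each overlapping its neighbour. The place of DANCR in it depended on the group, with 349 ± 34.4 in siControl beside 310.5 ± 41.6 for SNHG5 and 250.1 ± 33.8 for ZFAS1, and 206 ± 8.29 in siDelta2-4 beside 288 ± 16.7 and 208 ± 18.9. SNHG16 (40.1 ± 3.86) and SNHG8 (18.9 ± 1.88) stood apart from both neighbours, and SNHG1 (8.11 ± 2.91) and EPB41L4A-AS1 (5.51 ± 1.31) were lowest and overlapped. Together the 10 genes took 0.279% ± 0.0154 of the library count in siControl and 0.275% ± 0.00929 in siDelta2-4, a difference smaller than either SD.

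Within this sum the proportions differed between the groups. DANCR gave 12.8% ± 0.318 of the host lncRNA counts in the siControl libraries and 8.03% ± 0.273 in siDelta2-4, while SNHG29 went from 27.6% ± 2.11 to 32.6% ± 0.488. Shares within a fixed sum are not independent, since a loss in one gene raises the others. Without DANCR, the other 9 genes held 0.243% ± 0.0126 of the library count in siControl and 0.253% ± 0.00922 in siDelta2-4, and the groups overlapped.

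In the gene-level fit (edgeR's quasi-likelihood test over 3888 genes), 1 of the 10 hosts, DANCR, was called, where 13% of all tested genes were called in either direction at an adjusted p under 0.1 and 5.97% were called lower. Values did not overlap between the groups in 4 of the 10 (SNHG29, SNHG8, DANCR and SNHG16), where 26% of all tested genes did not overlap. Nothing is read from these counts, because the contrast was used to choose the list. The log2 fold changes were positive in 5 and negative in 5, with a median of 0.0054 against 0.027 over all genes tested. In what follows, levels are CPM on TMM-scaled library totals, and log2 fold changes are siDelta2-4 over siControl ± SE. In a bulk culture, fewer cells with an RNA and less of it per cell cannot be told apart.

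**Figure D3:**
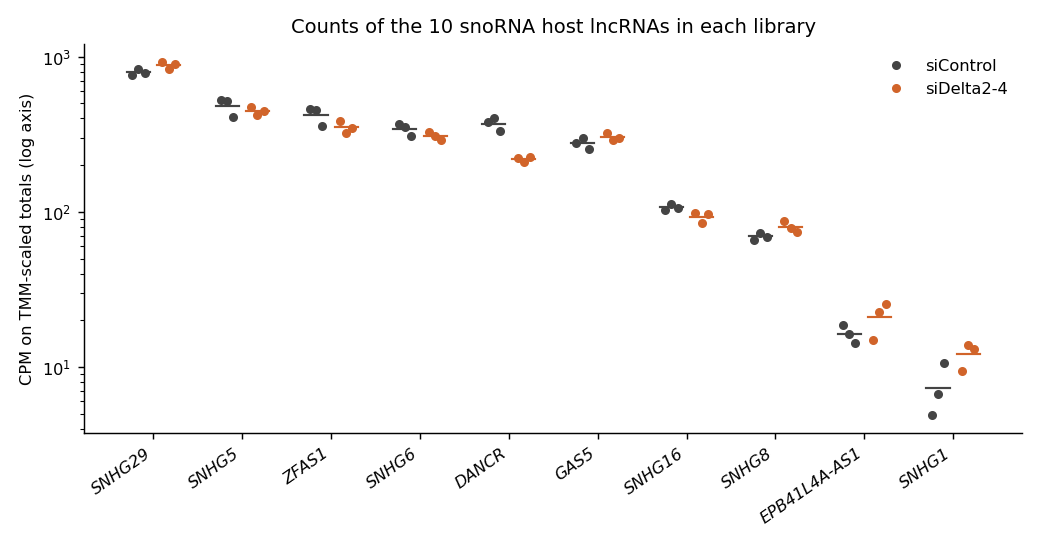
CPM on TMM-scaled totals (y axis, log scale) of the 10 host lncRNAs in each library, siControl in dark grey and siDelta2-4 in orange, with points for libraries and lines for group means. DANCR shows a clear gap between the groups, with means of 371 and 219 CPM, and SNHG1 and EPB41L4A-AS1 lie lowest.

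Among the hosts of H/ACA snoRNAs, DANCR, a lncRNA first described for holding back differentiation, was lower in siDelta2-4. Its level was 380.2, 402 and 330.5 CPM in siControl and 226, 209 and 222 CPM in siDelta2-4. Every siDelta2-4 library lay below every siControl library. The means were 371 ± 36.6 and 219 ± 8.82 CPM (± SD of 3 libraries), a log2 fold change of -0.76 ± 0.10, or 0.590 times the siControl level. The call held in all 16 alternative settings, with log2 fold changes from -0.88 to -0.69.

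Both leading DANCR models took part. DANCR-201 (3 exons, 987 nt) had 269, 278 and 240 counts in the siControl libraries and 205, 183 and 164 in siDelta2-4, a log2 fold change of -0.69 ± 0.11. DANCR-202 (2 exons, 1059 nt), which starts 221 bases further downstream, inside the first intron of DANCR-201, and keeps 278 of that intron's 296 bases as exon, had 116, 138 and 103 against 87, 69 and 68 (-0.85 ± 0.15). Both models share the 534-base intron that holds SNORA26, printed above, and neither group of counts overlapped the other. DANCR-201 made up 68.3% ± 1.71 of DANCR counts in the siControl libraries and 70.0% ± 1.04 in siDelta2-4, and these shares overlapped. DANCR-202 made up 30.8% ± 1.81 and 28.4% ± 1.40, which did not overlap, by a narrow margin.

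SNHG8, the host of SNORA24, had 66.3, 72.9 and 69.0 CPM in siControl and 74.4, 78.8 and 87.1 CPM in siDelta2-4. The siDelta2-4 libraries were all higher, with a log2 fold change of 0.20 ± 0.15 that was not called. SNHG8-207 (3 exons, 6166 nt) held 60.4% of its counts and SNHG8-211 (4 exons, 528 nt) 33.2%, and these models differ in length chiefly by a last exon of 5693 against 204 bases. EPB41L4A-AS1, the host of SNORA13, had 18.5, 16.3 and 14.4 CPM in siControl and 25.3, 22.8 and 14.98 in siDelta2-4, which overlapped (0.38 ± 0.28, not called). A single 3-exon model of 3511 nt held 96.1% of its 128 counts.

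Among the hosts of C/D snoRNAs, ZFAS1, which is transcribed away from the start of ZNFX1, had 458, 452 and 356 CPM in siControl and 349, 320.1 and 384 CPM in siDelta2-4. The siControl library with the lowest total fell among the siDelta2-4 libraries, so the groups overlapped. The log2 fold change was -0.27 ± 0.10 and was not called. It was called lower, however, in 5 of the alternative settings (DESeq2 size factors, at least 10 counts in every library, known models alone, length trend removed, and without the siControl library of lowest total), with values from -0.44 to -0.26.

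The models of ZFAS1 moved unequally. ZFAS1-205 (4 exons, 946 nt) had 183, 207 and 176 counts in the siControl libraries and 152, 130 and 128 in siDelta2-4, with no overlap (-0.65 ± 0.12, called lower). ZFAS1-202 (5 exons, 2608 nt) had 203, 196 and 152 counts in the siControl libraries and 236, 196 and 219 in siDelta2-4 (0.06 ± 0.12, not called). As a share of ZFAS1 counts, ZFAS1-202 went from 41.9% ± 1.19 to 51.7% ± 1.84 and ZFAS1-205 from 43.4% ± 4.21 to 32.5% ± 1.16, and neither pair of groups overlapped.

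Both models start at the same base (chr20:49278178) and share their first 3 exons. ZFAS1-202 includes a 62-base exon (chr20:49280903-49280964) that ZFAS1-205 skips, and its last exon is 1816 bases long, where that of ZFAS1-205 ends after 216. SNORD12, printed above, lies between exon 3 and that 62-base exon, in an intron of 332 bases in ZFAS1-202 and of 8474 bases in ZFAS1-205. The count-weighted length of ZFAS1 reads' models was 1607 ± 12.2 nt in siControl and 1771 ± 28.7 nt in siDelta2-4. In the test of usage within genes (diffSpliceDGE), ZFAS1 was nonetheless not called, and none of the 8 testable hosts was, where 0.618% of 1132 genes were. ZFAS1 usage was called when the siControl library of lowest total was left out, a setting in which 5.03% of genes were called.

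**Figure D4:**
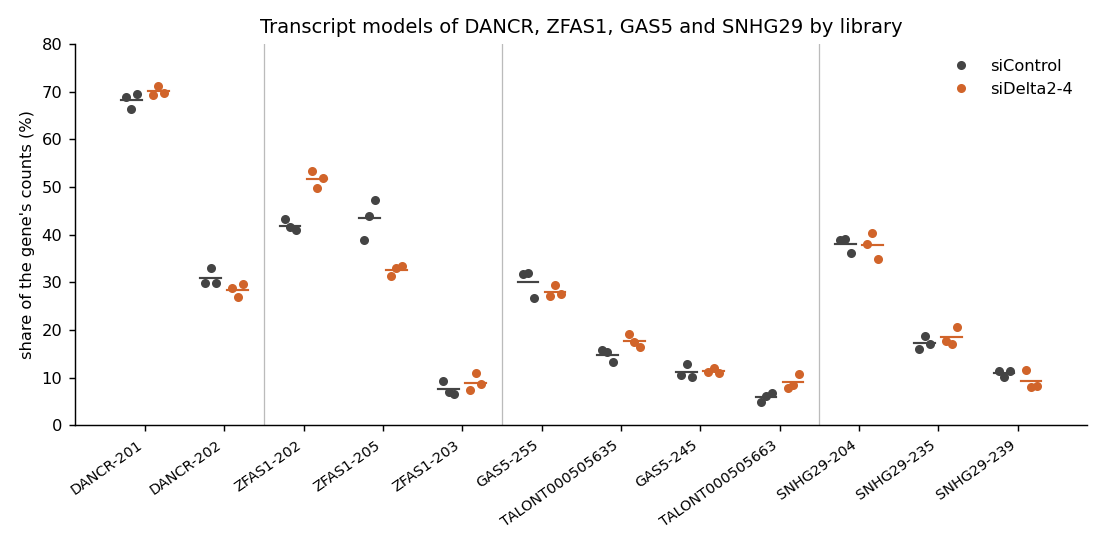
Share of the gene's counts (y axis, percent) on the leading models of DANCR, ZFAS1, GAS5 and SNHG29 in each library, siControl in dark grey and siDelta2-4 in orange, with points for libraries and lines for group means. ZFAS1-202 and ZFAS1-205 separate the groups in opposite directions, whereas DANCR-201 and SNHG29-204 overlap.

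SNHG29, the most abundant host and the one that holds SNORD49A, SNORD49B and SNORD65, had 763, 829 and 790.2 CPM in siControl and 903, 835 and 929 in siDelta2-4. All siDelta2-4 libraries were higher, the closest pair being 829 and 835 CPM. The means were 794 ± 33.2 and 889 ± 48.4 CPM, a log2 fold change of 0.16 ± 0.08 that was not called except on library totals alone (0.23). SNHG29-204 (5 exons, 1217 nt) held 38.01% ± 1.64 of its counts in the siControl libraries and 37.8% ± 2.69 in siDelta2-4, and the TOP-start model SNHG29-235 (4 exons, 1165 nt) held 17.3% ± 1.27 and 18.4% ± 1.87. None of the tested SNHG29 models was called.

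GAS5, named for its build-up in growth-arrested cells, had 279.8, 301 and 255 CPM in siControl and 298, 290.1 and 321 CPM in siDelta2-4. The groups overlapped, with a log2 fold change of 0.12 ± 0.10, although as plain shares of the library count they did not (0.0269% ± 0.00194 and 0.0306% ± 0.00125). The sign turned with known models alone, to -0.02. Unannotated models held 47.0% ± 1.56 of GAS5 counts in the siControl libraries and 50.7% ± 1.27 in siDelta2-4, with no overlap. The unannotated models of the count table all had at least 5 counts in each siDelta2-4 library, but as few as 0 in a siControl library. This uneven floor favours a higher unannotated share in siDelta2-4, so nothing is read from the difference.

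The leading GAS5 model, GAS5-255 (12 exons, 607 nt), held 29.0% of the counts, TALONT000505635 (11 exons, 658 nt) 16.4% and GAS5-245 (12 exons, 731 nt) 11.3%. TALONT000505663 (11 exons, 612 nt) had 14, 19 and 18 counts in the siControl libraries and 42, 30 and 27 in siDelta2-4, with no overlap (0.77 ± 0.25, called higher). The call was lost with no filter on low counts, at an adjusted p under 0.05, with the column number as a block, and on leaving out any 1 library other than the siControl library of lowest total. It was the one unannotated model among the 4 called of 41 tested host models (9.76%), where 6.91% of all 6768 tested models were called. Every unannotated model in the table had at least 5 counts in each siDelta2-4 library, but as few as 0 in a siControl library, and the lowest siControl count among the 14 unannotated host models was 2. Likewise 37 of the 144 host models (25.7%) had no count in siControl, where 4526 of all 21472 models (21.1%) had none. Without a count in siDelta2-4 there were 0 host models and 0 models in the whole table.

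SNHG5, the host of SNORD50A and SNORD50B, had 525, 515 and 408 CPM in siControl and 444, 423 and 475 CPM in siDelta2-4. The groups overlapped (-0.11 ± 0.10, not called), and SNHG5-225 (6 exons, 1450 nt) held 85.9% ± 0.969 of the counts of siControl and 86.5% ± 1.82 of those of siDelta2-4. SNHG6, the host of SNORD87, had 369.5, 354 and 307 CPM in siControl and 292, 310.4 and 325 in siDelta2-4. These values overlapped as well (-0.15 ± 0.10, not called), and SNHG6-203 (4 exons, 639 nt) held 87.5% ± 1.34 and 88.7% ± 1.59 of them. Both genes were called lower only when the siControl library of lowest total was left out, at -0.24 and -0.25.

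SNHG16, which holds the SNORD1 snoRNAs, had 103, 113 and 105 CPM in siControl and 96.7, 84.5 and 98.3 CPM in siDelta2-4. All siDelta2-4 libraries were lower, although as plain shares of the library count the groups overlapped, and the log2 fold change of -0.20 ± 0.13 was called only with the length trend removed (-0.38). SNHG16-210 (3 exons) and SNHG16-213 (4 exons) held 51.0% and 44.2% of the counts, and a 99-base exon between SNORD1C and SNORD1B, present in SNHG16-213 alone of these models, places the snoRNAs in separate introns. SNHG1, which carries SNORD22 and the SNORD25 to SNORD31 series, had 5, 7 and 11 counts in the siControl libraries and 17, 17 and 10 in siDelta2-4, too few to describe its models by library (0.71 ± 0.37, not called). Its most counted model, SNHG1-260 (10 exons), had 16 of the 67 counts. Some other SNHG1 models had no siControl count, whereas no model of the whole table lacked a siDelta2-4 count. What this did to the SNHG1 log2 fold change was not tested.

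**Figure D5:**
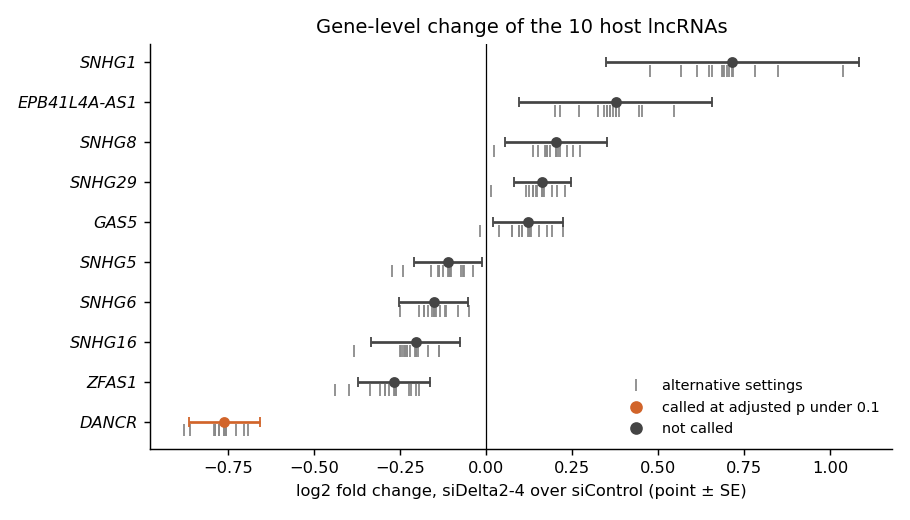
Log2 fold change of siDelta2-4 over siControl (x axis, point with SE) for the 10 host lncRNAs, with the values under each alternative setting as grey ticks below. DANCR, in orange, was the 1 called host at -0.76 ± 0.10, and the ticks of GAS5 reach across 0.

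SNHG29 had a partner on the opposite strand with nearly as many counts. This lncRNA, ENSG00000266651, had 5435 counts against 5670, a ratio of 0.959, and all lay on 18 unannotated models of 2 to 6 exons. By library it had 736, 792 and 836 counts in the siControl libraries and 1138, 1007 and 926 in siDelta2-4, beside 783, 865 and 825 and then 1177, 1028 and 992 for SNHG29. Its siDelta2-4 counts were all higher, as were those of SNHG29. All models of this lncRNA were unannotated, however, and such models had at least 5 counts in each siDelta2-4 library but as few as 0 in siControl. This uneven floor favours higher counts in siDelta2-4, so nothing is read from the shared direction. No strand setting of the counting is given in the sources used here, so reads of SNHG29 and of this gene could not be told apart. With its counts added, the log2 fold change of SNHG29 was 0.17 and was not called.

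Other genes of the same machinery were read from lists compiled by symbol or, for protein-coding hosts, by annotated snoRNA genes. Of 16 other SNHG genes with rows, 4 were tested and 0 were called (edgeR, with 0 at an unadjusted p under 0.05 and 0 with DESeq2), at a median log2 fold change of 0.03. SNHG15 had 48.5 ± 13.7 and 49.0 ± 12.3 CPM in siControl and siDelta2-4 (0.01 ± 0.21), and SNHG3 had 34.7 ± 4.15 and 36.0 ± 6.70 (0.05 ± 0.21).

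Ribosomal protein genes that host snoRNAs form a protein-coding list. Of 29 tested, 4 (13.8%) were called lower and 0 higher, with a median of -0.10 against 0.03 over all genes. Over all tested genes 5.97% were called lower and 7% higher. The lists were chosen with earlier results of these data known, so these shares are a description. RPL32 had a log2 fold change of -0.25 ± 0.08, RPL13A of -0.38 ± 0.08, RPL10 of -0.52 ± 0.11 and RPS2 of -0.44 ± 0.12. The 36 other protein-coding hosts tested had a median of 0.15, which was 0.01 with the length trend removed (2 called higher and 1 lower). In the main fit 5 of them (13.9%, against 7% of all tested genes) were called higher and 0 lower. They were RABGGTB, a subunit of the enzyme that prenylates Rab proteins (0.93 ± 0.19), the translation factors EIF4A2 (0.53 ± 0.18) and EIF1AX (0.77 ± 0.28), the RNA polymerase subunit gene POLR1C (1.03 ± 0.36) and CCNB1IP1 (1.49 ± 0.41). With DESeq2 1 of these other hosts was called, and the difference between these kinds of host was not tested.

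None of the tested genes for snoRNP core proteins (5), snoRNP assembly factors (5) or nonsense-mediated decay factors (3) was called, nor was any with DESeq2. With edgeR, 0, 0 and 1 of them had an unadjusted p under 0.05. NHP2, an H/ACA core protein, had 466 ± 9.19 CPM in siControl and 453 ± 24.0 in siDelta2-4, and SNU13, a C/D core protein, had 446 ± 46.2 and 426 ± 45.3. Among 3 tested regulators of TOP mRNAs and mTORC1, EIF4EBP1, a translational repressor controlled by mTORC1, was called lower (64.3 ± 2.02 and 46.3 ± 7.64 CPM, -0.48 ± 0.17), which DESeq2 did not call. LARP1, MTOR and RPTOR had no rows.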

How the data were processed

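Nanopore PCR-cDNA libraries from 3 siControl and 3 siDelta2-4 samples of Calu-6 were run for 72 h on 1 flow cell. Per the labels and the study's methods, the authors aligned reads to GRCh38.p14 with minimap2 2.14 and SAMtools 1.13, corrected them with TranscriptClean and assigned them to models with TALON on Gencode 44. The deposited values are raw counts per transcript model. Columns were tied to groups by name, and 0 columns of other samples were left out.

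Counts were summed per gene identifier over all genes. edgeR 4.0.16 in R 4.3.3 (filterByExpr, TMM, quasi-likelihood test, adjusted p under 0.1) was fitted to 3888 genes and 6768 models, and diffSpliceDGE to usage in 1132 genes. DESeq2 1.42.0 served alternatives. On simulated counts with 200 changed genes, 40% of 1.5-fold, 77% of 2-fold and 91.5% of 3-fold changes were recovered (3758, 3773 and 3747 genes).

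Sequences were read from GRCh38, with snoRNA positions from RefSeq. The members and gene lists were chosen with earlier results of these data known. Named were all members, their models with at least 10% of counts (at most 4 per gene) or a call, and in other lists the called genes (at most 6) or otherwise the 2 with the highest count. DANCR-203, SNHG29-238, SNHG29-239 and the models printed for their start were added after their values were seen. PCR reads without molecular identifiers are not independent molecules. Same-numbered columns did not deviate together (correlations of 0.039, -0.136 and -0.0843), so the numbers were not taken as pairs.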

Additional observations from a re-analysis of the deposited data

How the results depend on the processing

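Of 3888 genes 504 were called, and the count was 254 with DESeq2, 304 at an adjusted p under 0.05, 252 with known models alone (1854 genes tested) and 194 to 1041 when 1 library was left out, the highest without the siControl library of lowest total. The split of 272 higher and 232 lower became 361 and 152 on library totals alone, which moved the median over all genes from 0.03 to 0.09, 93 and 161 with DESeq2, and 202 and 268 with the length trend removed. Host lncRNAs called went from 1 to 2 with DESeq2 size factors, library totals alone, at least 10 counts in every library or known models alone, to 3 with the length trend removed, and to 1 to 4 with 1 library left out (4 without the siControl library of lowest total). DANCR was called lower under every alternative run, and GAS5 reversed to -0.0177 with known models alone. The cause of these changes was not tested.

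Ribosomal protein hosts called went from 4 to 11 with the length trend removed and to 2 to 15 with 1 library left out. Other protein-coding hosts went from 5 to 1 with DESeq2, 3 with the length trend removed and 1 to 6 with 1 library left out. snoRNP core proteins went from 0 to 1 with the length trend removed, and decay factors from 0 to 1 with DESeq2 size factors or known models alone and to 0 to 1 with 1 library left out. TOP regulators went from 1 to 0 with DESeq2, library totals alone or the length trend removed, and to 0 to 1 with 1 library left out. Model calls (468) were 294 at an adjusted p under 0.05 and 173 to 1113 with 1 library left out. Usage calls (7) were 4 on library totals alone, 1 at an adjusted p under 0.05 and 1 to 61 with 1 library left out. The host share of library counts (0.277%) was 0.3643% of annotated genes and 0.5745% of known models. The median longest pyrimidine run within 20 bases of the start (5) was 4 within 10 bases, 7 within 50 bases and 7 at RefSeq starts.

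With the column number as a replicate block, gene calls were 299, model calls 429 and usage calls 1, and no host gene changed its call, while called host models went from 4 to 3 with the loss of TALONT000505663. SNHG1 and EPB41L4A-AS1 had too few counts to resolve their models.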
